A study of Mus musculus with 12 samples.

Results

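The markers of other peritoneal cell types are 40 genes that cells other than macrophages are known for, read here in arrays of cultured peritoneal macrophages. They comprise 7 B cell genes, 8 T cell genes, 3 genes of natural killer (NK) and cytotoxic cells, 4 neutrophil and granule genes and 2 eosinophil genes. The others are 7 mast cell genes, 1 gene of dendritic progenitors (Flt3), 4 mesothelial genes and 4 fibroblast genes. The genes were listed with earlier results of these data known, and probes were assigned by name. A probe belonged to the set if its name in the scanner files was a listed gene or an older alias (Igj for Jchain). All 40 genes were on the array, with 58 of its 41174 probes, and 35 of them were among the 16742 genes tested.

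RNA was read on 12 one-colour arrays in 4 groups of 3: MyD88-null cells with apoA-I, MyD88-null control cells, C57BL/6 cells with apoA-I and C57BL/6 control cells. All cells came from female mice 10 weeks old, either MyD88-null (MyD88-/-) or C57BL/6 (MyD88+/+), and were washed from the peritoneal cavity 96 h after thioglycollate, an irritant that draws in leukocytes. All groups were loaded overnight with cholesterol at 10 µg/ml and kept with polymyxin B, which binds lipopolysaccharide, at 25 µg/ml. ApoA-I, the chief protein of high-density lipoproteins, was then given to 2 of the groups at 10 µg/ml for 2 h, whereas the control groups received none. The washed-out cells were plated and left to settle before the medium was changed. The labels name no step that sorted macrophages from other cells and do not say how many mice gave each sample, and p-values therefore measure only how far these 12 samples spread. The null genotype was that of the whole animal, and the labels do not say whether its other genes match C57BL/6.

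The peritoneal cavity of a mouse normally holds macrophages, B cells (many of the B-1 kind, which secrete natural antibody), T cells and mast cells, under a lining of mesothelial cells with fibroblasts beneath. Thioglycollate brings in neutrophils first and then monocytes, which become macrophages, and eosinophils can come with them. MyD88 is the adaptor for signals from Toll-like receptors, with few exceptions, and from receptors of the interleukin-1 family. These receptors sit on B cells and mast cells as well as on macrophages.

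Each value is the processed intensity on a log2 scale, taken relative to the 75th percentile of its own array, so that 0 is the 75th percentile of an array and -1 is 2-fold below it. A gene was read through 1 probe, and levels of different genes are not compared, since probes differ in brightness. The array of MyD88-null apoA-I replicate 1 stood apart: its 75th percentile was 199.5 intensity units and 73.62% of its probes were well above background, against 325.1 to 1408 units and 57.55% to 67.06% on the other 11 arrays. Dim probes read high on it, so several results that rest on it are also given without it. For 2 samples, replicate 2 of the MyD88-null apoA-I group and replicate 2 of the C57BL/6 control group, the description contradicts the title on whether apoA-I was added, and titles were followed. Genotype was not in doubt for either. Myd88 itself averaged 2.81 ± 0.416 in MyD88-null apoA-I cells, 1.79 ± 0.358 in MyD88-null control cells, 3.96 ± 0.481 in C57BL/6 apoA-I cells and 3.31 ± 0.304 in C57BL/6 control cells (SD, n = 3 each), and was lower in MyD88-null cells in 6 of 6 pairs of same-numbered samples. Whether its probe covers the deleted exons is not known here, so it is a weak check of the labels. Of 10 macrophage markers, 9 were well above background on all 12 arrays (among them Cd68, Adgre1, Csf1r, Itgam and Lyz2), and Cd163 was so on 4.

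The sequences shown first belong to B cell and mast cell genes that were lower in MyD88-null cells in every pair. Promoter windows, from RefSeq on build GRCm38.p6, run from 250 bases before to 50 bases after the start of the gene, and 28 of the 40 genes had one. Those of Cd79b, Ms4a1, Blk, Cd4, Thy1, Prg2, Tpsb2, Msln, Wt1, Krt19, Col1a1 and Dcn did not. The 4 windows printed are of Jchain (chr5:88527848-88528147), the B cell gene with the widest difference between genotypes, and of 3 mast cell protease genes, Cpa3 (chr3:20242132-20242431), Cma1 (chr14:55944626-55944925) and Mcpt4 (chr14:56062261-56062560). All are on the minus strand and are written 5′ to 3′ along the gene. Capitals mark the letters AGATAA, a form of the site bound by GATA factors of mast cells, and TATAAA, the TATA box, on either strand. Other forms of the GATA site were not searched for, so a window without a marked AGATAA can still hold one.
Jchain promoter: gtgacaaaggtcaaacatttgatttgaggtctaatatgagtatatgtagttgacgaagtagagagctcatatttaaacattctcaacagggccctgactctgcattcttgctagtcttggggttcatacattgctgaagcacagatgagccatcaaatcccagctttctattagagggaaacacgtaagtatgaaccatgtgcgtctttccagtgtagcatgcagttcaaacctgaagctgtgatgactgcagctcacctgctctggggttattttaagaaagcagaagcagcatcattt
Cpa3 promoter: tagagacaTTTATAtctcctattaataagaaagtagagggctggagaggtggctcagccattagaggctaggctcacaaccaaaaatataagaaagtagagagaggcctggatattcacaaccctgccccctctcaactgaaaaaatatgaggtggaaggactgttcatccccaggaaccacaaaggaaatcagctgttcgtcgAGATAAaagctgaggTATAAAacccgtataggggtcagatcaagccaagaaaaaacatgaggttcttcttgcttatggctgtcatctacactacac
Cma1 promoter: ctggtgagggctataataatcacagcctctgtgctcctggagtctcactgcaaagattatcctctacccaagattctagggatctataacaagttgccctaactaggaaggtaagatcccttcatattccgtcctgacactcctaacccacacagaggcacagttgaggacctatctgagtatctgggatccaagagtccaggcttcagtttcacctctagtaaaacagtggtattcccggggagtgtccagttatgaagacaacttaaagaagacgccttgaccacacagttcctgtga
Mcpt4 promoter: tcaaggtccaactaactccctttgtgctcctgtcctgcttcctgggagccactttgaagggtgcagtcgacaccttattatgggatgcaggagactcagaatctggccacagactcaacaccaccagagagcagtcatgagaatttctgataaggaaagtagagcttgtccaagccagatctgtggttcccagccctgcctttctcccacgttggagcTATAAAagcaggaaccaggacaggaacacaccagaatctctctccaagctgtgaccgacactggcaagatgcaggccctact
AGATAA or its reverse TTATCT stood in the Cpa3 window, with its first base 46 bases before the start, and in 11.2% of all 32851 promoter windows. TATAAA or its reverse TTTATA stood in 13.6% of all windows: at 31 bases before the start in Cpa3, which also held the reverse farther up, and at 32 bases before it in Mcpt4. The octamer ATGCAAAT, bound by the Oct factors of B cells, or its reverse ATTTGCAT was in 1.74% of all windows and in none of these 4. These are matches of letters in windows of 300 bases and say nothing of the factors that bind there.

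The measurements themselves came from 60-base probes. The pair shown here covers a B cell kinase and a mast cell protease on chromosome 14 whose probe spans an intron of the mm7 build, so that it reads spliced RNA: Blk, whose probe lies on the minus strand between chr14:58242375-58243512, a span of 1138 bases, and the second probe of Cma1, between chr14:50810007-50811066, a span of 1060 bases.
Blk probe: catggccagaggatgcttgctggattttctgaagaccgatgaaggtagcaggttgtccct
Cma1 probe: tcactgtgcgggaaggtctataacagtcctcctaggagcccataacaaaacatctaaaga

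Which of these cell types left RNA in the cultures was read first from detection. Of the 40 genes, 35 passed the detection filter (every array of some group well above background). Of these, 32 were so on all 12 arrays. Over all genes named on the array, 16742 of 27666 passed, and 57.55% to 73.62% of probes were well above background on each array. Detection was thus common, and by itself it is weak evidence of a cell type. The 12-array genes were 5 of 7 of B cells, 7 of 8 of T cells, 1 of 3 of NK and cytotoxic cells, 3 of 4 of neutrophils, 7 of 7 of mast cells, 4 of 4 of mesothelium, 4 of 4 of fibroblasts and Flt3. Both eosinophil genes failed the filter. Of 6 further eosinophil genes outside the 40, 5 were on the array. Siglecf, Ccr3 and Ear1 were above background on all 12 arrays, Il5ra on 7 and Prg3 on 1. Of 8 further NK and cytotoxic genes outside the 40, 2 were above background on all 12 arrays (Klrb1c and Il2rb) and 2 on none (Gzmb and Eomes).

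The 5 genes that failed the filter are defining products of short-lived or cytotoxic leukocytes. Gzma, a granzyme of cytotoxic granules, was above background on none of the 12 arrays. Ncr1, the NK cell receptor NKp46, was above background on 1 array, MyD88-null apoA-I replicate 1, at -2.75, while the other 11 arrays read -6.86 to -5.28. Elane, the neutrophil elastase made in early granulocytes, was above background on 1 array, MyD88-null apoA-I replicate 2, at -3.63. Epx, the eosinophil peroxidase, was above background on 1 MyD88-null apoA-I array and 1 MyD88-null control array, and on 0 of 6 C57BL/6 arrays. The MyD88-null apoA-I array was replicate 1, which stood apart, at -3.54, where the other 2 arrays of its group read -6.25 and -6.92. Prg2, the eosinophil major basic protein, was above background on 2 MyD88-null apoA-I arrays, 1 MyD88-null control array, 1 C57BL/6 apoA-I array and 0 C57BL/6 control arrays. Without MyD88-null apoA-I replicate 1, which was one of them, Prg2 was above background on 1 of the other 2 arrays of that group. A value below background is a bound of the array and not an absence of the RNA.

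**Figure D1:**
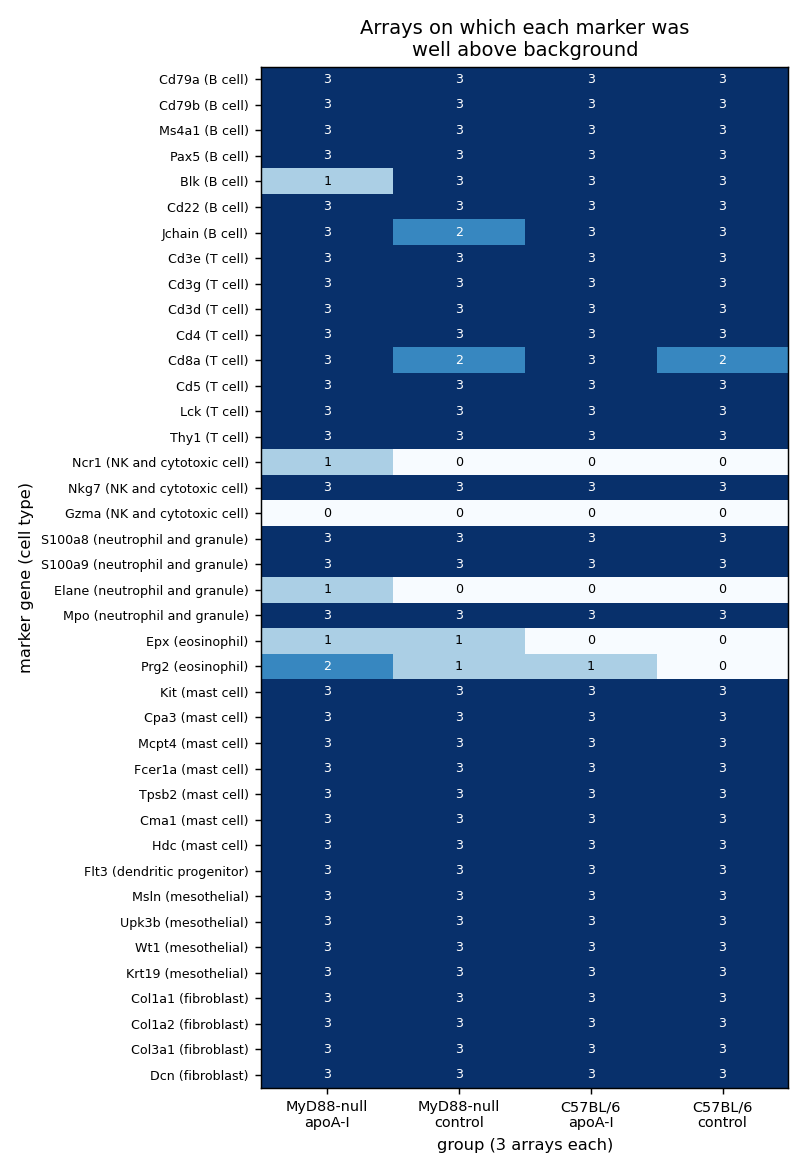
Number of arrays, of 3 in each group, on which the probe used for each of the 40 genes was well above background. Columns are MyD88-null apoA-I, MyD88-null control, C57BL/6 apoA-I and C57BL/6 control, and rows are genes with their cell type. Gzma is at 0 in every column, Ncr1, Elane, Epx and Prg2 are at 2 or less, and 32 genes are at 3 throughout.

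The question put to the detected genes was how far the 2 genotypes held the same cells. Across all 12 arrays, with the treatments averaged, 1 of the 35 genes passed the limma test at an adjusted p under 0.05. It was Jchain, lower in MyD88-null cells; the background was 0.263% of all genes called (44 of 16742) and 0.245% called lower. The samples of a replicate number came from the same experiment, and with the replicate experiment as a block 4 of 35 passed, all lower in MyD88-null cells: Jchain, Ms4a1, Blk and Tpsb2. The background of the blocked fit was 2.13% of all genes called and 1.51% called lower.

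The unadjusted p was under 0.05 for 9 of 35 genes, all lower in MyD88-null cells, where 3.35% of all genes were lower at that level. Counts over arrays need no model. Since the genes were listed with earlier results of these data known, the shares of all genes beside such counts are descriptive. The 6 MyD88-null arrays lay wholly below the 6 C57BL/6 arrays for 4 of 35 genes (Jchain, Ms4a1, Cpa3 and Cma1), against 0.311% of all genes, and wholly above them for 0 of 35, against 0.317% of all genes. Within apoA-I cells 7 of 35 genes lay wholly lower in MyD88-null cells (2.41% of all genes), and within control cells 5 of 35 (3.48% of all genes). In each of the 6 pairs of same-numbered samples, MyD88-null was below C57BL/6 for 11 of 35 genes: Jchain, Ms4a1 and Blk of B cells, Cpa3, Cma1, Mcpt4, Tpsb2 and Hdc of mast cells, S100a8 of neutrophils, and Col1a2 and Dcn of fibroblasts. The share of all genes lower in all 6 pairs was 5.31%. MyD88-null was above C57BL/6 in 6 of 6 pairs for 1 of 35 genes, Thy1, where 9.4% of all genes did so. The samples of a pair did not always share a slide or scan day. Slide 3, the only slide of scan day 2, held MyD88-null apoA-I replicate 1 and MyD88-null control replicate 2. Slide 4 held C57BL/6 control replicate 3 alone. In the pairs of these samples genotype and slide cannot be told apart, and for those on slide 3 the scan day differed too.

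**Figure D2:**
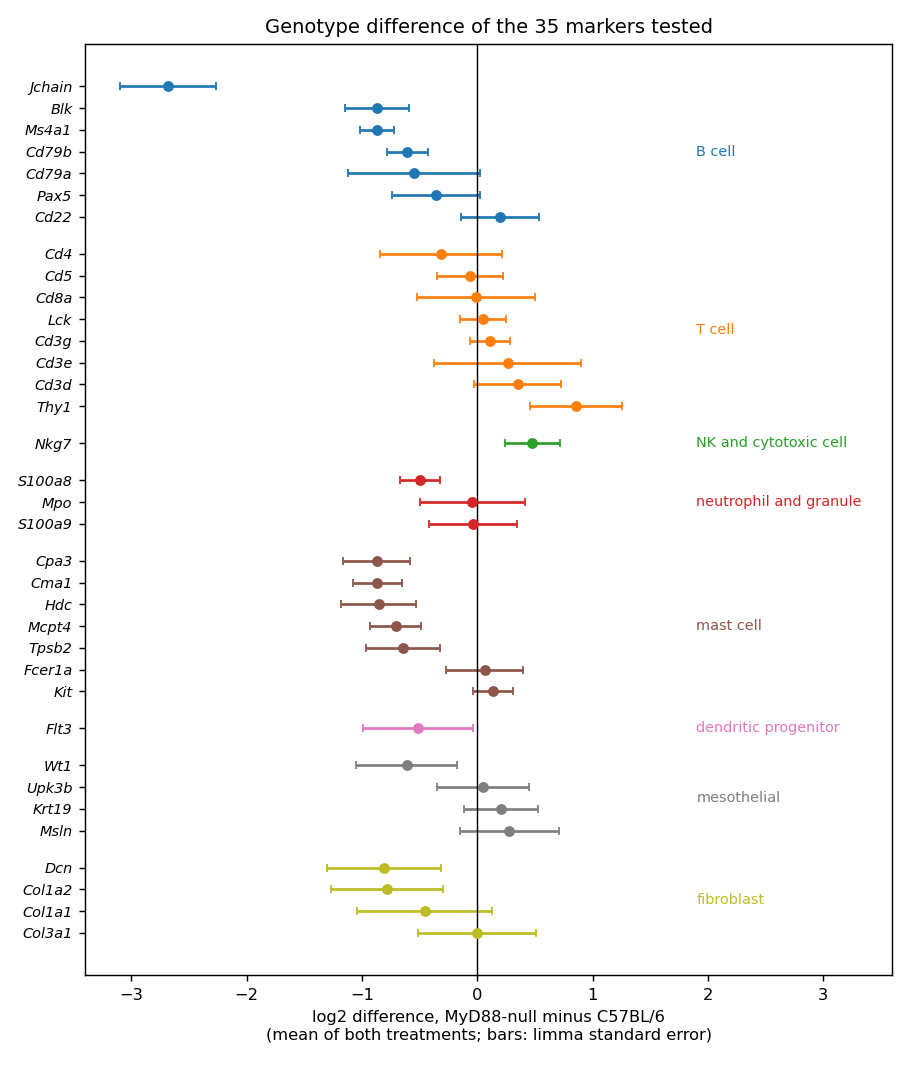
Log2 difference between MyD88-null and C57BL/6 cells, averaged over both treatments, for the 35 genes tested. Points are limma estimates from 12 arrays, bars are standard errors, and genes run down the page by cell type. Jchain lies at -2.68, 5 of the 7 mast cell genes lie between -0.87 and -0.64, and 5 of the 8 T cell genes lie above 0.

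Jchain, the joining chain that links the units of polymeric IgM and IgA and is made by antibody-secreting B lineage cells, differed most. It read -3.01, -3.64 and -2.92 in MyD88-null apoA-I cells (replicates 1, 2 and 3) and -5.29, -3.44 and -3.18 in MyD88-null control cells, against -1.74, -0.65 and -0.22 in C57BL/6 apoA-I cells and -1.65, -0.49 and -0.65 in C57BL/6 control cells. Every MyD88-null array was below every C57BL/6 array, and the lowest value, MyD88-null control replicate 1, was not well above background. The difference was -2.68 (SE 0.418), or 6.41-fold lower in MyD88-null cells, with an adjusted p of 0.0346 in limma and 0.00407 with the replicate block. In these bulk samples fewer cells of a type and less RNA in each cell cannot be told apart.

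The probe used for Jchain lies at chr5:88461353-88461412 of build mm7, and a second one at chr5:88461523-88461582. Which part of the transcript they cover was not looked up, since no mm7 gene models were used here. The second Jchain probe was well above background on all 6 C57BL/6 arrays and on 1 of the 6 MyD88-null arrays, so it passed the detection filter through C57BL/6 and its test is not used. It was well above background on none of the MyD88-null apoA-I arrays. Each of these was therefore set to the lowest value of any probe well above background on that array (mean -4.52). Against the mean of -2.52 in C57BL/6 apoA-I cells, Jchain was then 3.98-fold lower. That level is no strict bound, since other probes, such as that of Blk, read above it without being well above background.

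By treatment, the Jchain difference was -2.32 between apoA-I cells (adjusted p 0.817, 0.0895 with the replicate block) and -3.04 between control cells (adjusted p 0.136, 0.0172 with the block). The background of called genes was 0.0657% and 0.0956% in those comparisons, and with the block 0.227% and 0.591%. On slides that held both genotypes under 1 treatment, the Jchain difference was -2.99 on slide 2 and -2.7 on slide 5 (both apoA-I cells). On slide 1 (control cells) the MyD88-null array was not well above background. With that array set to the lowest value of any of its probes well above background, -4.53, Jchain was lower there by 2.88. With slide as a fixed block the Jchain difference was -3.2 (adjusted p 0.00316).

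The adjusted p of Jchain without the block depended on single arrays. It ran from 0.0366 to 0.13 over the 12 fits that each left out 1 array, with a difference of -2.9 to -2.35, and 7 of the 12 fits lost the call. The 7 arrays were MyD88-null apoA-I replicates 1 (0.0904), 2 (0.0802) and 3 (0.0863), C57BL/6 apoA-I replicates 2 (0.13) and 3 (0.0985), and C57BL/6 control replicates 2 (0.12) and 3 (0.0977). With the block and without MyD88-null apoA-I replicate 1 it was -2.97 (adjusted p 0.00187). Normexp background correction made the difference smaller, at -1.57 (adjusted p 0.0235). The call was lost with quantile normalization (adjusted p 0.119), with the deposited values (0.106), with no filter on dim probes (0.0723), without both samples of conflicting description (0.227) and with treatment taken from the descriptions (0.238).

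Ms4a1 encodes CD20, a membrane protein of mature B cells. It read 1.26, 0.61 and 0.82 in MyD88-null apoA-I cells and 0.79, 0.65 and 0.93 in MyD88-null control cells, against 1.53, 1.65 and 1.86 in C57BL/6 apoA-I cells and 1.67, 1.73 and 1.82 in C57BL/6 control cells. The C57BL/6 arrays lay within 0.33 of each other and all were above the highest MyD88-null array, which was MyD88-null apoA-I replicate 1. The difference of Ms4a1 was -0.87 (SE 0.147, 1.83-fold lower), with an adjusted p of 0.0513 in limma and 0.0138 with the replicate block. Without MyD88-null apoA-I replicate 1 it was -0.96, with an adjusted p of 0.0273. The second Ms4a1 probe differed by -0.82 (SE 0.166, adjusted p 0.117 over all probes).

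Blk, a Src family kinase of the B cell receptor, had the same size of difference at -0.87 (SE 0.275, adjusted p 0.411, 0.0257 with the replicate block). It read -3.76, -4.33 and -4.74 in MyD88-null apoA-I cells and -3.6, -4.31 and -5 in MyD88-null control cells, against -2.83, -3.38 and -3.69 in C57BL/6 apoA-I cells and -3.48, -3.31 and -3.83 in C57BL/6 control cells. The genotypes overlapped over all arrays, since replicate 1 of both MyD88-null groups lay within the C57BL/6 range, but each MyD88-null sample was below its C57BL/6 partner. Blk was near the detection limit, above background on 1 of 3 MyD88-null apoA-I arrays, and with normexp background correction its difference was -0.31.

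The other B cell genes did not pass either fit over all 12 arrays. Cd79b, a signalling chain of the B cell receptor, differed by -0.61 (SE 0.176, adjusted p 0.341, 0.0868 with the block) and was lower in MyD88-null cells in 5 of 6 pairs. Without MyD88-null apoA-I replicate 1 Cd79b differed by -0.73 (adjusted p 0.155), and with the block as well by -0.71 (adjusted p 0.0488), which passed. Its partner chain Cd79a differed by -0.55 (SE 0.57) and the B lineage transcription factor Pax5 by -0.36 (SE 0.382), each lower in 4 of 6 pairs. Cd22, an inhibitory coreceptor of B cells that binds sialic acid, was lower in MyD88-null cells in 2 of 6 pairs, with a difference of 0.2 (SE 0.337), and its second probe gave 0.56 (SE 0.166, adjusted p 0.397 over all probes). The 7 B cell genes thus had a median of -0.606 with 6 of 7 below 0. All genes had a median of 0.0315 with 45.3% below 0. Without MyD88-null apoA-I replicate 1 the 7 B cell genes had a median of -0.868, again with 6 of 7 below 0. Their intensities, each over the array's 75th percentile and summed over the 7 genes, ran from 6.99 to 10.5 in MyD88-null apoA-I cells and from 7.25 to 11.2 in MyD88-null control cells, against 11 to 12.5 in C57BL/6 apoA-I cells and 10.3 to 13.2 in C57BL/6 control cells. Ms4a1 and Cd79b made up 38.6% to 71.4% of these sums. Cd22, whose difference was above 0 and whose probe is also bright, added to them as well. On MyD88-null control replicate 1 it read 2.69, against 1.39 for Cd79b and 0.79 for Ms4a1.

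A further list of 10 B cell genes outside the 40 was read beside them. Of its 8 genes tested, none passed limma and 2 passed with the replicate block, both lower in MyD88-null cells. The background of the blocked fit was 1.51% of all genes called lower. The 2 genes were Fcrla, an Fc receptor-like protein of B cells (-0.83, adjusted p 0.0169 with the block), and Spib, an Ets transcription factor (-0.85, adjusted p 0.0326 with the block). The further list had a median of -0.519.

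**Figure D3:**
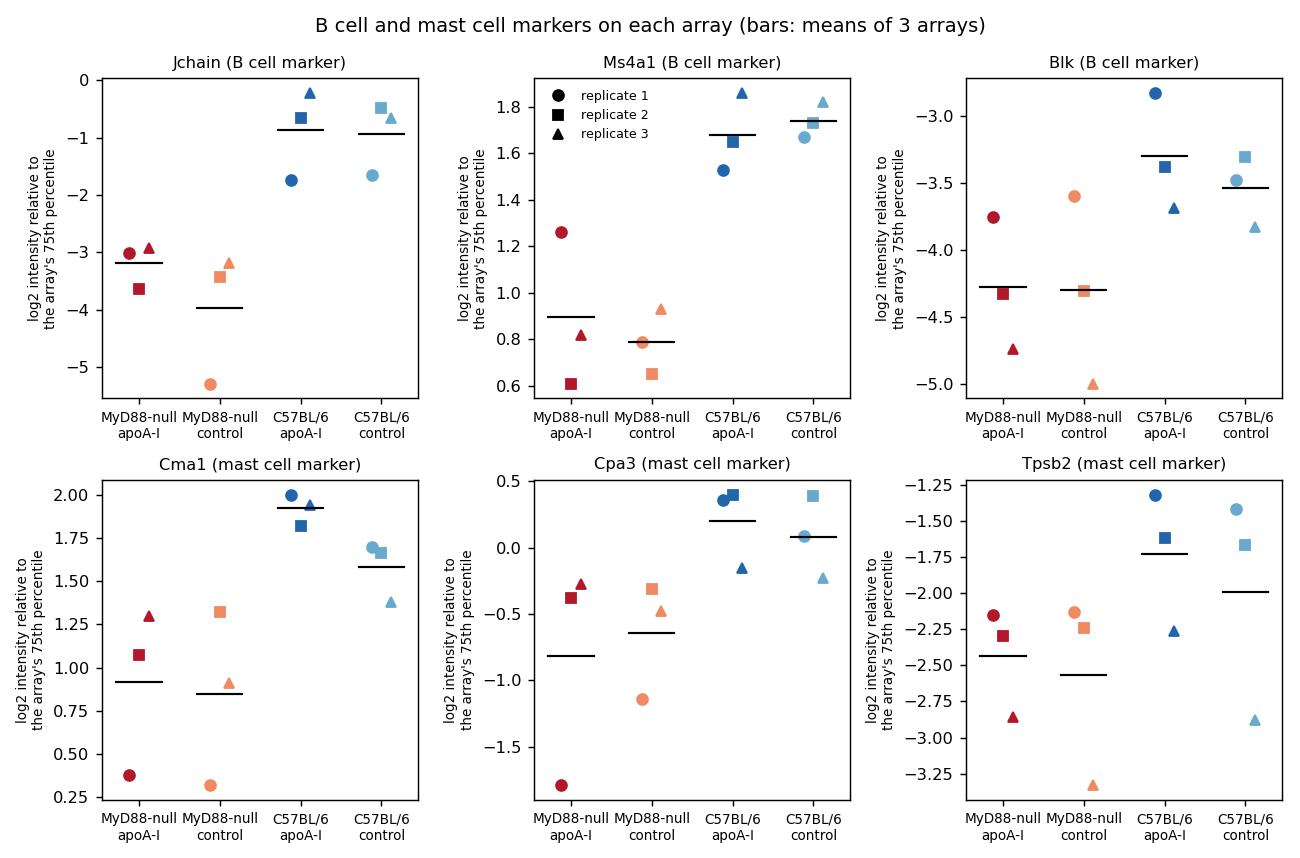
Log2 intensity relative to the array's 75th percentile on each of the 12 arrays for Jchain, Ms4a1 and Blk (B cells) and Cma1, Cpa3 and Tpsb2 (mast cells). Columns are MyD88-null apoA-I, MyD88-null control, C57BL/6 apoA-I and C57BL/6 control cells, symbols are replicates 1 to 3, bars are means of 3 arrays, and axes differ between panels and do not start at 0. For Jchain, Ms4a1, Cma1 and Cpa3 all 6 MyD88-null arrays lie below all 6 C57BL/6 arrays.

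Mast cells store proteases, histamine and proteoglycan in granules, and the connective-tissue mast cells of the peritoneum hold the products of Cpa3, Cma1, Mcpt4 and Tpsb2. All 7 mast cell genes were above background on all 12 arrays. Of the 7, none passed limma between the genotypes and 1, Tpsb2, passed with the replicate block, while 5 were lower in MyD88-null cells in 6 of 6 pairs. Over all genes 1.51% were called lower with the block, and 5.31% were lower in all 6 pairs. The median of the 7 mast cell genes was -0.708.

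Cma1, the mast cell chymase, read 0.38, 1.07 and 1.3 in MyD88-null apoA-I cells and 0.32, 1.32 and 0.91 in MyD88-null control cells, against 2, 1.82 and 1.94 in C57BL/6 apoA-I cells and 1.7, 1.66 and 1.38 in C57BL/6 control cells. The genotypes did not overlap, although MyD88-null control replicate 2 came within 0.06 of C57BL/6 control replicate 3. The difference of Cma1 was -0.87 (SE 0.212, 1.82-fold lower), which missed the threshold in limma (adjusted p 0.209) and with the block (0.0635). Its second probe gave -0.91 (SE 0.259).

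Cpa3, the mast cell carboxypeptidase, read -1.79, -0.38 and -0.27 in MyD88-null apoA-I cells and -1.14, -0.31 and -0.48 in MyD88-null control cells, against 0.36, 0.4 and -0.15 in C57BL/6 apoA-I cells and 0.09, 0.39 and -0.23 in C57BL/6 control cells. The genotypes did not overlap, although MyD88-null apoA-I replicate 3 (-0.27) came close to C57BL/6 control replicate 3 (-0.23). Replicate 1 was the lowest sample of both MyD88-null groups. The difference of Cpa3 was -0.87 (SE 0.288, adjusted p 0.466, 0.122 with the block), and -0.63 without MyD88-null apoA-I replicate 1. Within experiments it was -2.15 and -1.23 in experiment 1, -0.79 and -0.69 in experiment 2, and -0.12 and -0.24 in experiment 3 (apoA-I and then control cells).

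Tpsb2, a mast cell tryptase, read -2.15, -2.3 and -2.86 in MyD88-null apoA-I cells and -2.13, -2.24 and -3.33 in MyD88-null control cells, against -1.32, -1.62 and -2.26 in C57BL/6 apoA-I cells and -1.42, -1.67 and -2.88 in C57BL/6 control cells. Replicate 3 was lowest in every group, and the 6 paired differences lay between -0.83 and -0.46. The difference of Tpsb2 was -0.64 (SE 0.322, adjusted p 0.801), and with the block its adjusted p was 0.0384, or 0.0693 without MyD88-null apoA-I replicate 1. The tryptase Tpsab1 is close to Tpsb2 in sequence, and cross-hybridisation between them was not tested.

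Of the other mast cell genes, the protease Mcpt4 differed by -0.71 (SE 0.223, adjusted p 0.0669 with the block) and Hdc, the enzyme that makes histamine, by -0.86 (SE 0.324, adjusted p 0.0894 with the block). The second Mcpt4 probe gave a smaller difference of -0.52 (SE 0.158, adjusted p 0.411 over all probes). The receptor genes gave values near 0: 0.14 (SE 0.176) for Kit, the receptor of stem cell factor, and 0.06 (SE 0.335) for Fcer1a, a chain of the IgE receptor. Summed over the 7 genes, the intensity over the array's 75th percentile ran from 4.11 to 5.97 in MyD88-null apoA-I cells and from 3.4 to 5.6 in MyD88-null control cells, against 8.15 to 10.3 in C57BL/6 apoA-I cells and 6.22 to 8.34 in C57BL/6 control cells. Cma1 and Hdc, whose probes are bright, made up 64.9% to 79% of these sums, which therefore add little to the values of those genes. Of a further list of 9 mast cell and basophil genes, 2 were tested, Gata2 (-0.15) and Il1rl1 (-0.24), and neither passed either fit.

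The T cell genes did not follow the B cell genes. Their median between genotypes was 0.0779, with 3 of 8 below 0, and 0 of 8 passed limma or the blocked fit. Without MyD88-null apoA-I replicate 1 the median was 0.0118, again with 3 of 8 below 0. Cd3e, Cd3g and Cd3d, chains of the T cell receptor complex, differed by 0.26 (SE 0.635), 0.11 (SE 0.173) and 0.35 (SE 0.377). Without that array they differed by 0.0855, 0.0188 and 0.0349. The coreceptors Cd4 and Cd8a differed by -0.32 (SE 0.529) and -0.01 (SE 0.511), Cd5, which B-1 cells also carry, by -0.06 (SE 0.287), and the kinase Lck by 0.05 (SE 0.2).

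Thy1, a surface protein of mouse T cells that some fibroblasts carry too, had the widest difference of the 8. It read 0.06, -0.69 and -0.4 in MyD88-null apoA-I cells and -1.1, 0.63 and -0.9 in MyD88-null control cells, against -2.2, -0.91 and -0.57 in C57BL/6 apoA-I cells and -2.11, -0.84 and -0.92 in C57BL/6 control cells. The groups overlapped, and the difference of 0.86 (SE 0.4) had an adjusted p of 0.746 (0.249 with the block). Nkg7, a granule protein of NK and cytotoxic T cells, was the 1 gene of its 3 that could be tested. It read -1.84, -2.96 and -2.35 in MyD88-null apoA-I cells and -2.6, -3.59 and -3.37 in MyD88-null control cells, against -3.2, -3.36 and -2.91 in C57BL/6 apoA-I cells and -3.48, -3.08 and -3.54 in C57BL/6 control cells. Its groups overlapped, with a difference of 0.48 (SE 0.238, adjusted p 0.801). Without MyD88-null apoA-I replicate 1 the difference of Nkg7 was 0.341.

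Of a further list of 11 T cell genes, 10 were tested. None passed limma, and with the block 1 passed: Cd28, the costimulatory receptor, was higher in MyD88-null cells by 1.24 (adjusted p 0.053 in limma, 0.0045 with the block) and higher in 6 of 6 pairs. Over all genes 0.621% were called higher with the block, and 9.4% were higher in all 6 pairs. The median of the further T cell list was -0.028.

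Among the neutrophil and granule genes, S100a8, which pairs with S100a9 to form calprotectin, was lower in MyD88-null cells in 6 of 6 pairs. It read -0.85, -1.08 and -0.89 in MyD88-null apoA-I cells and -1.3, -1.12 and -0.84 in MyD88-null control cells, against -0.17, -0.67 and -0.35 in C57BL/6 apoA-I cells and -0.34, -1.1 and -0.45 in C57BL/6 control cells. C57BL/6 control replicate 2 fell within the MyD88-null range, and the difference of -0.5 (SE 0.175) had an adjusted p of 0.51 (0.109 with the block). S100a9 differed by -0.04 (SE 0.381) and Mpo, the myeloperoxidase of granules, by -0.04 (SE 0.453).

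Flt3, the receptor that drives dendritic progenitors, read -1.74, -2.75 and -3.93 in MyD88-null apoA-I cells and -2.65, -4.02 and -4.38 in MyD88-null control cells, against -2.62, -1.98 and -1.89 in C57BL/6 apoA-I cells and -3.45, -2.19 and -4.25 in C57BL/6 control cells. The spread within groups was as wide as the difference of -0.52 (SE 0.474, adjusted p 0.994).

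The 4 fibroblast genes had a median genotype difference of -0.62, with 4 of 4 below 0, and none of them passed either fit. Without MyD88-null apoA-I replicate 1 the median was -0.397, with 3 of 4 below 0. Each of the 4 genes had its lowest paired difference, MyD88-null minus C57BL/6, in experiment 3 under both treatments. For Dcn it was -0.04, -0.35 and -1.81 in control cells of experiments 1, 2 and 3, and -0.52, -0.76 and -1.36 in apoA-I cells. Col3a1 was above 0 in experiments 1 and 2 (0.28 and 0.52 in control cells, 0.25 and 0.3 in apoA-I cells). In experiment 3 Col3a1 was at -1.04 in control cells and -0.33 in apoA-I cells. Dcn, a proteoglycan of the collagen matrix, had the widest genotype difference of the 4 fibroblast genes, -0.81 (SE 0.495, adjusted p 0.887, 0.143 with the block). It read 4.76, 6.26 and 5.18 in MyD88-null apoA-I cells and 4.89, 6.46 and 4.25 in MyD88-null control cells, against 5.29, 7.02 and 6.54 in C57BL/6 apoA-I cells and 4.93, 6.81 and 6.06 in C57BL/6 control cells. Replicate 2 was the highest of all 4 groups. Col1a2 and Col1a1, which encode the chains of type I collagen, differed by -0.78 (SE 0.486) and -0.46 (SE 0.588) between genotypes, and Col3a1, of type III collagen, by -0.0035 (SE 0.509).

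The comparison of experiments was added after the values were seen. In the blocked fit, 4 of 35 genes differed between experiment 2 and experiment 1, all higher in experiment 2, where 2.88% of all genes differed and 1.59% were higher. They were the 4 fibroblast genes: Col1a1 by 2.02 (SE 0.323, adjusted p 0.0283), Col3a1 by 1.77 (SE 0.283, adjusted p 0.0283), Dcn by 1.67 (SE 0.3, adjusted p 0.0323) and Col1a2 by 1.54 (SE 0.312, adjusted p 0.0436). Col3a1 read 5.63 to 6.16 on the 4 arrays of experiment 2 and 3.86 to 4.28 on the 4 arrays of experiment 1. Experiment 3 ran from 4.28 to 5.69, and its samples were the only ones scanned on the last scan day. Between experiment 3 and experiment 1, 47.6% of all genes and 17 of 35 markers differed, and experiment and scan day cannot be told apart there.

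Repeated spots on an array differed less than arrays did. Col1a1 was printed 10 times on each array, and its spots had a median SD of 0.0458, against an SD of 0.956 to 1.36 between replicate arrays of a group. For Wt1, also printed 10 times, the values were 0.0487 between spots and 0.257 to 1.24 between replicates. For the dimmer Cd8a they were 0.345 between spots and 0.714 to 1.21 between replicates.

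**Figure D4:**
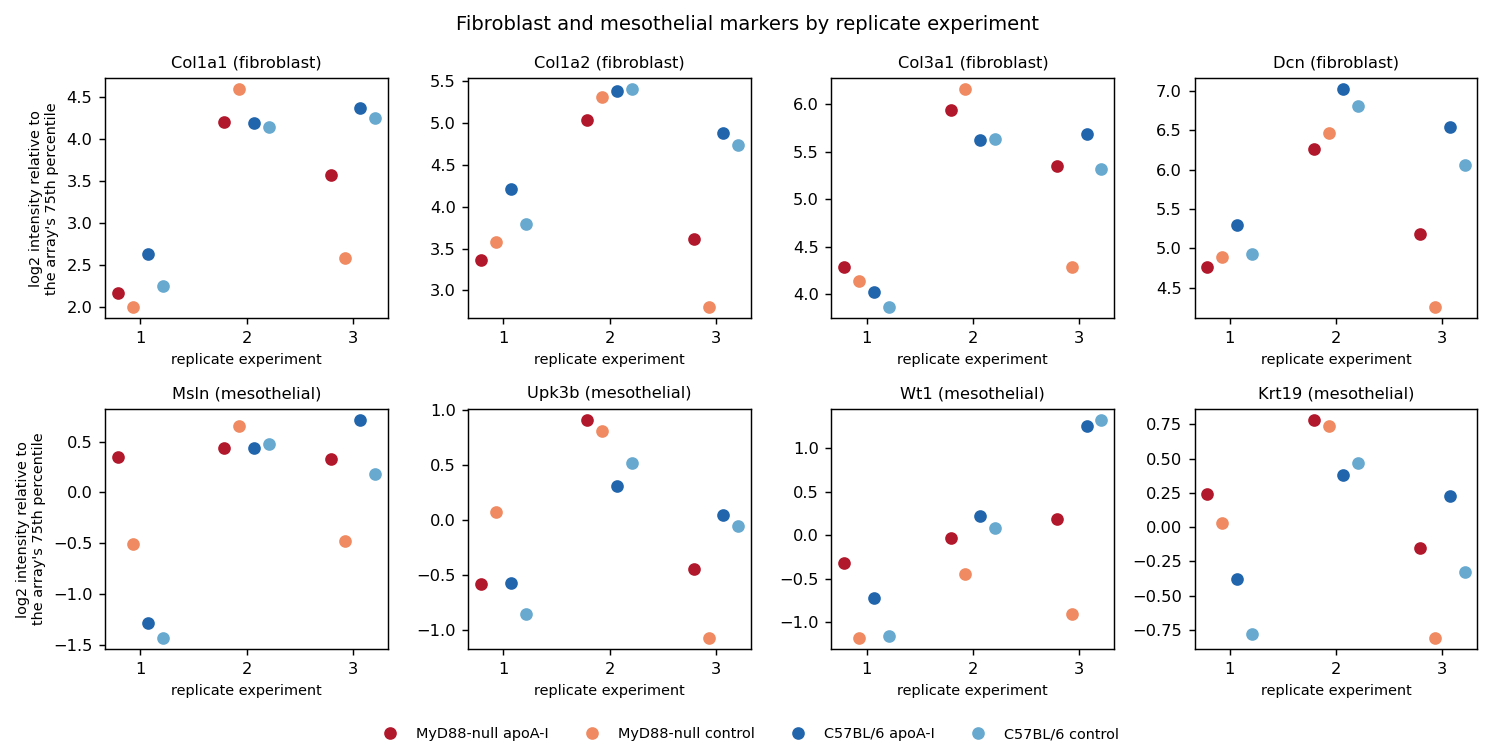
Log2 intensity relative to the array's 75th percentile of 4 fibroblast genes (upper row) and 4 mesothelial genes (lower row) by replicate experiment. Each point is 1 array, with colours for MyD88-null apoA-I, MyD88-null control, C57BL/6 apoA-I and C57BL/6 control cells from left to right, and axes do not start at 0. For the 4 fibroblast genes every array of experiment 2 lies above every array of experiment 1, and the arrays of experiment 3 spread over a wider range than either. For Col1a2 experiment 3 runs from 2.8 to 4.88, against 3.36 to 4.21 in experiment 1 and 5.03 to 5.4 in experiment 2.

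The mesothelial genes had a median of 0.128 between genotypes, and none of the 4 passed either fit. Msln (mesothelin) differed by 0.28 (SE 0.431), Upk3b, a uroplakin of mesothelium, by 0.05 (SE 0.398) and the keratin Krt19 by 0.21 (SE 0.318). Wt1, the transcription factor of mesothelium, read -0.32, -0.03 and 0.19 in MyD88-null apoA-I cells and -1.18, -0.45 and -0.9 in MyD88-null control cells, against -0.72, 0.22 and 1.25 in C57BL/6 apoA-I cells and -1.16, 0.08 and 1.32 in C57BL/6 control cells. The groups overlapped, and its difference of -0.61 (SE 0.435) had an adjusted p of 0.941 (0.311 with the block). Between experiment 2 and experiment 1 the 4 mesothelial genes had a median of 0.965, with 4 of 4 above 0 and 0 of 4 called.

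Whether 2 h of apoA-I moved these genes was asked in each genotype. In MyD88-null cells 0 of 35 genes passed limma, where 1.14% of all genes did, and 2 had an unadjusted p under 0.05 (8.66% of all genes). In C57BL/6 cells 0 of 35 passed, where 0.83% of all genes did, and 0 had an unadjusted p under 0.05 (7.41% of all genes). With the replicate block 0 of 35 passed in C57BL/6 cells, where 3.4% of all genes did. The difference of the responses passed for 0 of 35 genes in limma and in the blocked fit, where 0% of all genes passed, and 196 of the 16742 genes had an unadjusted p under 0.05.

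In MyD88-null cells 1 gene passed with the replicate block: Lck, the kinase of the T cell receptor, where 4.07% of all genes passed and 3.46% were higher. Lck read -0.49, -0.48 and -1.02 in MyD88-null apoA-I cells, against -1.11, -1.6 and -1.78 in MyD88-null control cells. These groups did not overlap, which was so for 3 of 35 markers and 11.6% of all genes in this comparison. The change of Lck was 0.84 (SE 0.283, adjusted p 0.346 in limma, 0.0215 with the block, 0.0431 with the block and without MyD88-null apoA-I replicate 1). In C57BL/6 cells Lck read -0.9, -0.75 and -1.41 with apoA-I, against -0.99, -1.11 and -1.6 in control cells, a change of 0.21 (SE 0.283, adjusted p 0.566 with the block). The difference of the responses of Lck was 0.62 (SE 0.4, adjusted p 0.64 with the block).

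The 8 T cell genes had a median change with apoA-I of 0.685 in MyD88-null cells, with 8 of 8 above 0, and of 0.242 in C57BL/6 cells, with 7 of 8 above 0. The medians of all genes were 0.0515 and -0.00212. Without MyD88-null apoA-I replicate 1, the array that stood apart, the T cell median in MyD88-null cells was 0.174, with 5 of 8 above 0. Cd8a then changed by 0.79, Lck by 0.75, Cd3e by 0.6, Cd4 by 0.21 and Cd3g by 0.14, while Cd3d (-0.06), Thy1 (-0.09) and Cd5 (-0.1) lay just below 0. The B cell and mast cell genes had median changes of 0.109 and 0.173 in MyD88-null cells and -0.0602 and 0.245 in C57BL/6 cells, and 0 of these 14 genes passed either fit. Without that array the median change in MyD88-null cells was -0.178 for the B cell genes and 0.331 for the mast cell genes.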

How the data were processed

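RNA of 12 samples (500 ng each) was read on one-colour Agilent arrays of 45018 spots. Spot intensities were read, background-corrected and flagged by the authors with Agilent Feature Extraction 9.5.1.1 or 9.5.3.1, per the file headers (9.5 in the submitters' processing notes). The authors' deposited value table holds log10 processed values: its columns correlated at 0.99257 to 0.99974 with the scanner values on a log scale. No source used here says whether it was centred. Its column medians for replicates 1, 2 and 3 were 1.8333, 1.846 and 1.8225 in MyD88-null apoA-I cells, 1.8386, 1.8676 and 1.8435 in MyD88-null control cells, 1.8402, 1.841 and 1.8346 in C57BL/6 apoA-I cells, and 1.8435, 1.8408 and 1.8283 in C57BL/6 control cells. It served as an alternative.

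From the deposited intensities, outlier spots (62 to 139 an array) were left out, spots of a probe averaged, and log2 values set against the array's 75th percentile over 41174 probes. Probes that were well above background on every array of some group were kept (24350), and a gene was its probe of highest mean. Probes were named by accession (22951), another accession (131), symbol (6582) or synonym (3073) through RefSeq on GRCm38.p6, or kept the file's name (8437). The 4 group means were fitted to the 12 arrays with limma 3.58.1 in R 4.3.3 (8 residual and 2.16 prior degrees of freedom), two-sided, with Benjamini-Hochberg adjustment over 16742 genes and a threshold of 0.05. The code was tested on simulated data. Figures were drawn with matplotlib 3.10.9.

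Per the labels, replicate numbers are replicate experiments. In all 18 pairs of same-numbered samples the deviations from the group means correlated (0.296 to 0.859). Samples of a number also largely shared a slide or scan day, so these correlations cannot tell experiment from slide or day. The pairing rests on the labels, and the fit with the replicate experiment as a block is given beside results it changes. Correlations between arrays of the same group were 0.915 to 0.979, and the number of arrays limits the precision.

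The members and lists were chosen with earlier results of these data known. Values of every array are given for genes that passed a comparison, had genotypes that did not overlap under both treatments, or had the largest genotype difference of their cell type. Blk, Tpsb2 and Lck were added because they passed the blocked fit. No p was computed for a list.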

Additional observations from a re-analysis of the deposited data

How the results depend on the processing

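No called difference changed direction under the alternatives run. Of the 35 markers 1 was called between genotypes (mean of both treatments). The count was 0 with quantile normalization, no filter on dim probes, the deposited values, both samples with conflicting descriptions left out, or treatment taken from the descriptions. It was 2 with the mean of the probes of a gene or scan day as a block, and 4 with the replicate block, slide as a random block, or the replicate block without MyD88-null apoA-I replicate 1. Leaving out 1 array at a time it was 0 to 1. Between control cells 0 were called, against 1 with the replicate block or slide as a fixed block and 2 with slide as a random block or the block without that array. Between apoA-I cells 0 were called, against 1 with slide as a random or fixed block or the block without that array. For apoA-I in MyD88-null cells 0 were called, against 1 with the replicate block (with or without that array), slide as a random block or scan day. Jchain was called under 13 of 25 alternatives, with a difference of -3.2 to -1.57 and an adjusted p of 0.000409 to 0.238. Ms4a1 was called under 7 of 26 alternatives, Blk under 2 of 25, Tpsb2 under 1 of 26, and Lck (apoA-I in MyD88-null cells) under 4 of 27. The cause was not tested. Over all genes, 44 were called between genotypes, against 24 with no filter, 356 with the replicate block, 200 and 8 with slide as a random and as a fixed block, 15 without the conflicting samples, 2 with treatment from the descriptions, 237 with the block without that array, and 21 to 45 leaving out 1 array. Between apoA-I cells 11 were called, against 3 (above background on all 12 arrays), 38 (block), 44 and 5 (slide random and fixed), 17 (scan day), 5 (only the groups compared), 6 (without the conflicting samples), 2 (descriptions), 19 (block without that array) and 8 to 13 (1 array left out). Between control cells 16 were called, against 9 (normexp), 99 (block), 68 and 2 (slide random and fixed), 1 (only the groups compared), 2 (without the conflicting samples), 2 (descriptions), 109 (block without that array) and 6 to 16 (1 array left out). For apoA-I in MyD88-null cells 191 were called, against 682 (block), 660 (slide random), 357 (scan day), 90 (only the groups compared), 90 (without the conflicting samples), 0 (descriptions), 415 (block without that array) and 115 to 186 (1 array left out). In C57BL/6 cells 139 were called, against 83 (no filter), 570 (block), 754 (slide random), 323 (scan day), 81 (only the groups compared), 59 (without the conflicting samples), 0 (descriptions), 786 (block without that array) and 66 to 156 (1 array left out). The difference of responses gave 0, and 2 with slide as a random block. Slide as a fixed block and the block without that array were chosen after the data were seen. Without that array, the 4 blocked calls between genotypes held Cd79b and not Tpsb2. Blk and the second Jchain probe lie near the detection limit, which bounds what their folds can show.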

Other observations

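Other lists of cell type genes gave values outside the 40 markers. Lcn2, which encodes the lipocalin of neutrophil granules and of activated macrophages, was well above background on 0 of 6 MyD88-null arrays and 6 of 6 C57BL/6 arrays. It read -4.51, -5.29 and -7.08 in MyD88-null apoA-I cells and -6.44, -6.88 and -6.79 in MyD88-null control cells, against -1.46, -1.81 and -2.51 in C57BL/6 apoA-I cells and -3.16, -4.09 and -3.83 in C57BL/6 control cells. It passed the detection filter through C57BL/6 alone, so these values are a description and no test of Lcn2 is given. Mmp9, the gelatinase of neutrophils and macrophages, was lower in MyD88-null cells in 6 of 6 pairs. Its difference was -1.32 (adjusted p 0.0835 in limma, 0.0155 with the replicate block). Over all genes 1.51% were called lower with the block, and 5.31% were lower in all 6 pairs. The other 4 neutrophil genes tested in that list passed neither fit. They were at 0.48 for Ltf, 0.16 for Mmp8, 0.29 for Cxcr2 and 0.28 for Ctsg. Ltf was higher in 6 of 6 pairs, as were 9.4% of all genes.

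Among 9 further fibroblast genes tested, with a median of -0.639, 2 passed the blocked fit as lower, where 1.51% of all genes did. They encode platelet-derived growth factor receptors. Pdgfra differed by -2.33 between MyD88-null and C57BL/6 cells (adjusted p 0.309 in limma, 0.00586 with the block) and Pdgfrb by -1.69 (adjusted p 0.513 in limma, 0.0276 with the block), each lower in 6 of 6 pairs. Over all genes 5.31% were lower in all 6 pairs. Of the other fibroblast genes, Fn1 (fibronectin) was at -1.22 (adjusted p 0.0606 with the block). Mgp (matrix Gla protein) was at 0.81 (adjusted p 0.117 with the block). Of 4 further eosinophil genes tested none passed either fit, with differences between genotypes of 0.08 for Siglecf, 0.00404 for Ccr3, -0.41 for Il5ra and -0.24 for Ear1. Of 6 resident peritoneal macrophage genes tested, the median change with apoA-I was 0.443 in MyD88-null cells and 0.000959 in C57BL/6 cells. F10, coagulation factor X, was the gene of that list that passed limma, higher with apoA-I by 1.43 in MyD88-null cells (adjusted p 0.0185) and 1.69 in C57BL/6 cells (adjusted p 0.00907). Over all genes 1.14% passed limma in MyD88-null cells and 0.83% in C57BL/6 cells.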
